A study of Mus musculus with 6 samples.

Results

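The genes described here encode 3 families of zinc-dependent proteases and the inhibitors that bind them: matrix metalloproteinases (symbols Mmp with a number), ADAM proteins (Adam with a number, Adam17 left out), ADAMTS proteases (Adamts with a number) and tissue inhibitors of metalloproteinases (Timp with a number). They were chosen by symbol among probe sets paired with 1 gene, with earlier results of these data known. For each gene the set with the highest mean over the 6 arrays was taken. The arrays held 64 such genes of 18193, namely 18 Mmp, 27 Adam, 15 Adamts and 4 Timp genes. They were measured in NIH3T3 cells, an established mouse embryonic fibroblast line, with 1 Affymetrix array for each combination of genotype and time: LPAR1 wild-type cells at 0, 60 and 120 minutes, and LPAR1 mutant cells at 0, 60 and 120 minutes. The receptor LPAR1 responds to lysophosphatidic acid, a lipid found in serum. Neither the stimulus given at 0 minutes, nor the mutation and how it was introduced, nor the number of cultures or clones is stated in the labels. SE and p-values measure how far these arrays depart from additive effects of genotype and time. Noise, which may be technical, and unequal time courses of the genotypes cannot be told apart in them.

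Metalloproteinases cut proteins of the extracellular matrix and of the cell surface. MMPs, some secreted and some anchored in the membrane, degrade collagens and other matrix proteins; ADAM proteins are membrane proteins, many of which release growth factors, receptors and adhesion molecules from the cell surface; and secreted ADAMTS proteases cleave proteoglycans and process procollagen and other matrix proteins. Most are made as inactive precursors, and TIMPs block their active site. In fibroblasts the balance of these proteases and inhibitors governs how the surrounding matrix is remodelled.

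Values are probe-set intensities on a linear scale. Mean intensity per array lay between 299 and 308. The 9 fibroblast markers examined all passed the filter on low values and summed to between 56939 and 58936 per array. Of 7 leukocyte and macrophage markers, Ptprc, Cd68 and Itgam did not pass, with Ptprc between 13.9 and 21.8, whereas Cd14 (211 to 294), Lyz2 (158 to 179), Csf1r and Adgre1 passed. Of 5 endothelial markers Cdh5 alone passed, and Pecam1 lay between 2.79 and 5.66. Lpar1 had intensities of 1335, 1290 and 1289 in wild-type cells and 1496, 1514 and 1438 in the mutant at 0, 60 and 120 minutes, which does not check the mutation itself. The Actb 5' to 3' signal ratio, which reflects RNA integrity, was lowest at 0 minutes (0.579 in wild-type, 0.505 in mutant) and 0.650 to 0.699 later. The 6 epithelial markers, 4 of which passed the filter, summed to 1685, 1535 and 1458 in wild-type cells and 1731, 1549 and 1405 in the mutant at 0, 60 and 120 minutes. Most of that sum came from the keratin gene Krt14, at 1001 to 1267, while Krt8 and Krt18 did not pass. Epcam went against the sum in wild-type cells, with 159.5, 211.2 and 277.4, and had 262.8, 203.6 and 220.2 in the mutant. Cdh1 fell from 148.5 to 104.4 in wild-type and from 108.6 to 66.0 in mutant cells. Krt5 lay between 57.8 and 88.7. The part of the Actb ratio and of the epithelial markers in the changes over time was not tested.

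Tests covered genes whose mean level reached the 40th percentile, which corresponds to an intensity of 39.2. Of the 64 members, 28 passed this filter and 36 did not. By family, 10 of 27 Adam, 9 of 15 Adamts, 6 of 18 Mmp and 3 of 4 Timp genes passed; over all genes the filter keeps 60%. The members that did not pass had a median intensity of 10.8, and 35 of the 36 stayed below the filter level on each of the 6 arrays. The exception was Mmp10, a stromelysin, which reached 40.4 on the wild-type array of 60 minutes and lay between 21.2 and 37.6 on the others. The remaining Mmp genes below the filter were the collagenases Mmp1a, Mmp1b, Mmp8 and Mmp13, the stromelysin Mmp3, the gelatinase Mmp9, the macrophage elastase Mmp12, the membrane-anchored Mmp17 and Mmp23, Mmp19, and the enamel protease Mmp20. Of the Timp genes, Timp4 did not pass and lay between 17.0 and 21.7. The 6 Adamts genes were Adamts3, Adamts8, Adamts15, Adamts16, Adamts19 and Adamts20, with no array above 27.7. The 17 Adam genes included many known from testis and sperm and were Adam1a, Adam1b, Adam2, Adam3, Adam4, Adam5, Adam6a, Adam6b, Adam7, Adam8, Adam18, Adam23, Adam24, Adam25, Adam26a, Adam32 and Adam34, with no array above 28.7. Of these, Adam18, Adam3, Adam5 and Adam32 lie next to one another on chromosome 8 in RefSeq gene order and are followed there by Adam9, which passed.

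The Mmp genes of chromosome 9, where Mmp13, Mmp12, Mmp1b, Mmp3, Mmp1a, Mmp10 and Mmp8 follow one another and Mmp20 and Mmp7 are neighbours, were mostly among the dim members: only Mmp7 passed. Promoter sequences (RefSeq, GRCm38.p6) were held for 36 of the 64 members, 16 of them above the filter, with 41 transcription starts in all. The motif TGANTCA, which AP-1 factors (FOS and JUN dimers) bind, reads the same on both strands. It was found within 250 bases before a start in 10 of these members. These were 10 of their 41 starts, against 6.75% of 32851 starts over all genes. Of the 10, 8 were Mmp genes of chromosome 9, and the others were Adam19 and Adam25. The 100 bases before the start are shown for these 8 genes because they share the motif, which is in capitals. For Mmp7 and Mmp12 the start shown is the 1 of 2 that holds it. TATAAA, a form of the TATA box, was found on the strand of the gene within 250 bases before a start in 7 of the 8, all but Mmp12. Of the 41 starts of members 8 held it, against 7.59% of all starts.
Mmp13 (chr9:7272414-7272513, plus strand): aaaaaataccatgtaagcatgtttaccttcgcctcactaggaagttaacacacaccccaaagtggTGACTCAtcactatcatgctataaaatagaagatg
Mmp12 (chr9:7347274-7347373, plus strand): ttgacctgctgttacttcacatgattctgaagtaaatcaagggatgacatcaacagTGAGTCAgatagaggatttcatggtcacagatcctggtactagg
Mmp1b (chr9:7388027-7388126, minus strand): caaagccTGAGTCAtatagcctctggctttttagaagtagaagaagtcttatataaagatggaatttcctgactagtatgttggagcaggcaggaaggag
Mmp3 (chr9:7445722-7445821, plus strand): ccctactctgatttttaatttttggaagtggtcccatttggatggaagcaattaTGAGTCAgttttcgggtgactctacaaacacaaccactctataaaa
Mmp1a (chr9:7464041-7464140, plus strand): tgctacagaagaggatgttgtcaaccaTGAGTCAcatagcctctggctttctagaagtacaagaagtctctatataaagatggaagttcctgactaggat
Mmp10 (chr9:7502242-7502341, plus strand): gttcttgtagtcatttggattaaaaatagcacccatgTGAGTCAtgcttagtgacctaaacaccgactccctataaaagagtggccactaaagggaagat
Mmp20 (chr9:7628131-7628230, plus strand): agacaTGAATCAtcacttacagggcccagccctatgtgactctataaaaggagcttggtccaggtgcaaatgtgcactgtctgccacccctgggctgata
Mmp7 (chr9:7691990-7692089, plus strand): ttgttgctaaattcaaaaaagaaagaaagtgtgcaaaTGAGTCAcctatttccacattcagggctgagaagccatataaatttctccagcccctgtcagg
A match describes the sequence and does not show that a factor binds there. Of the 8, only Mmp7 was bright enough to be tested. Mmp3, with TGAGTCA beginning 46 bases before its start, had intensities of 12.4, 15.4 and 8.42 in wild-type cells and 25.2, 21.2 and 19.2 in the mutant at 0, 60 and 120 minutes. Mmp13, with TGACTCA beginning 35 bases before its start, stayed between 2.42 and 5.14 on the 6 arrays. Mmp7, which encodes matrilysin, lay between 41.7 and 79.0 on the 6 arrays, with no order by genotype, and was called in no contrast. When the filter was dropped, Mmp3 was the one further member called, higher in mutant cells by log2 0.44 (adjusted p = 0.0312), at intensities below the filter level on every array.

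From 0 to 120 minutes Timp1, Timp3 and Adam19 rose, while 10 members fell, of which 5 were Adamts genes led by Adamts1 and Adamts5. In all, 13 of 28 tested members were called at 120 minutes, or 46.4%, against 47.0% of 10916 tested genes, so the share of members that changed was near that of all genes. Higher calls made up 16.2% and lower calls 30.8% of all tested genes. The median log2 difference was -0.11 over the 28 members and -0.091 over all tested genes. At 60 minutes 5 members were called, 2 higher and 3 lower, or 17.9% against 18.0% of all tested genes (7.34% higher and 10.7% lower). Between 60 and 120 minutes 8 were called, 3 higher and 5 lower, or 28.6% against 25.1% of all (10.2% higher and 14.9% lower). The contrasts share arrays and are not independent of one another.

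**Figure D1:**
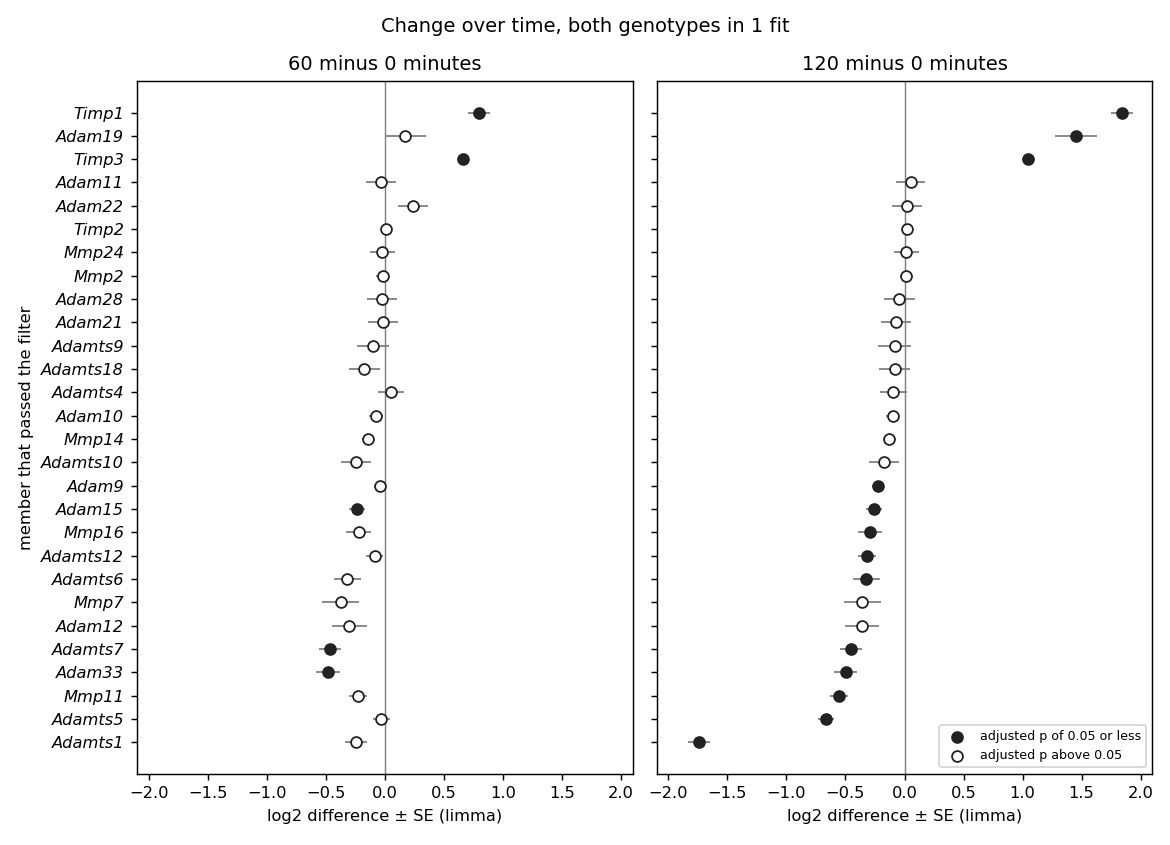
Log2 difference ± SE (limma) of the 28 members that passed the filter, 60 minus 0 minutes on the left and 120 minus 0 minutes on the right, both genotypes in 1 fit; filled points have an adjusted p of 0.05 or less. Timp1 and Timp3 were called at both times, whereas Adam19 and Adamts1 were called at 120 but not at 60 minutes.

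Timp1, a secreted inhibitor of most MMPs, had intensities of 994, 1483 and 3537 in wild-type cells at 0, 60 and 120 minutes, and of 613, 1262 and 2282 in mutant cells. Both arrays of each time lay above both arrays of the time before. The rise was log2 0.80 ± 0.096 by 60 minutes (SE, limma, n = 2 arrays per time; adjusted p = 0.000300) and 1.84 ± 0.096 by 120 minutes (adjusted p = 4.11e-07), a 3.59-fold increase that ranked 60 of 10916 genes. It has a single probe set on the array. Timp3, an inhibitor that binds the matrix and also blocks several ADAM and ADAMTS proteases, had 1465, 2282 and 3100 in wild-type cells and 1708, 2766 and 3495 in mutant cells. Its arrays were ordered by time without overlap as well. It rose by log2 0.66 ± 0.052 at 60 minutes (adjusted p = 1.56e-05) and by 1.05 ± 0.052, or 2.07-fold, at 120 minutes (adjusted p = 3.04e-07). The other 3 Timp3 probe sets gave 1.06 to 1.11 at 120 minutes. Timp2, an inhibitor that also helps membrane-type MMPs activate the MMP2 precursor, stayed level, with 8419, 8216 and 8499 in wild-type and 7616, 7939 and 7789 in mutant cells. Its difference at 120 minutes was log2 0.023 ± 0.044 (adjusted p = 0.707).

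Adam19, a membrane protease that can release neuregulin, had 179, 223 and 727 in wild-type cells and 203, 211 and 414 in the mutant at 0, 60 and 120 minutes. The arrays of 0 and 60 minutes lay close together and both arrays of 120 minutes lay far above them. The difference was log2 0.17 ± 0.17 at 60 minutes (adjusted p = 0.526) and 1.45 ± 0.17, or 2.74-fold, at 120 minutes (adjusted p = 0.000104). Between 60 and 120 minutes it rose by 1.28 ± 0.17 (adjusted p = 0.000507), the rise of rank 32 among all tested genes. A second Adam19 probe set, below the filter level, gave 0.74 at 120 minutes.

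The 250 bases before the start are shown for the 3 genes that rose, with every match to 5 motifs in capitals: TGANTCA (AP-1), GGGCGG or CCGCCC (GC box, 32.7% of all starts), GGAATG or CATTCC (TEAD, 12.6%), TATAAA on the strand of the gene, and the CArG box that SRF binds (1.47%), all but TATAAA sought on both strands. For Adam19 the start shown is the 1 of 3 that holds TGANTCA.
Timp1 (chrX:20869916-20870165, plus strand): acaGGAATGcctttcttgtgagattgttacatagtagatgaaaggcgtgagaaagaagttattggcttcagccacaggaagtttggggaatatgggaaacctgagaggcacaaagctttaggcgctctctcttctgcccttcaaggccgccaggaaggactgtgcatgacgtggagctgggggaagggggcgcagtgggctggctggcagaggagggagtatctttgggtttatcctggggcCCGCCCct
Timp3 (chr10:86300162-86300411, plus strand): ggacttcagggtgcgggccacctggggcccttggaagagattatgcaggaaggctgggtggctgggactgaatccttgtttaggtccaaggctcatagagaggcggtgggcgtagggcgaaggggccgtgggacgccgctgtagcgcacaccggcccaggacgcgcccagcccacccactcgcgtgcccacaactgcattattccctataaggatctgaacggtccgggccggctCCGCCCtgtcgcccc
Adam19 (chr11:46055734-46055983, plus strand): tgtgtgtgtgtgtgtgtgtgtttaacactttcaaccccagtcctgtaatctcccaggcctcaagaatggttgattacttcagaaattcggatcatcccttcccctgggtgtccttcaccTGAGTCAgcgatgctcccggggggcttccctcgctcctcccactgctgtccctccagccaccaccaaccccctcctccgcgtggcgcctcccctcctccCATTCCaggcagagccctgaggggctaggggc
Timp1 and Timp3 share a GC box close to the start, and Adam19 has none in this window. Timp1 holds GGAATG beginning 247 and CCGCCC beginning 8 bases before its start. Timp3 holds CCGCCC beginning 15 bases before its start. Adam19 holds TGAGTCA beginning 131 and CATTCC beginning 32 bases before the start shown. None of the 41 starts of members holds the CArG box.

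**Figure D2:**
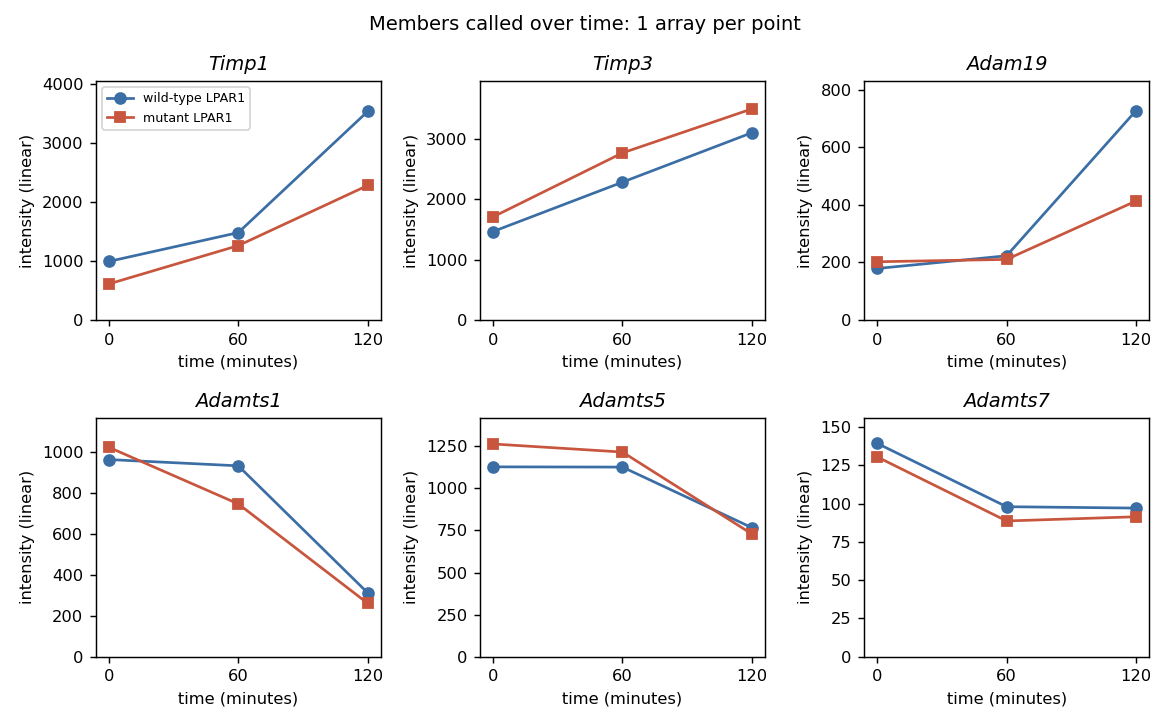
Intensity (linear axis from 0) against time in minutes for 6 members called over time, 1 array per point, wild-type LPAR1 in blue circles and mutant LPAR1 in red squares. Timp1, Timp3 and Adam19 reach their highest values at 120 minutes in both genotypes, and Adamts1 and Adamts5 their lowest; Adamts7 is already lower at 60 minutes.

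Among the proteases that fell, Adamts1, which cleaves versican and other proteoglycans, changed most. Its intensities were 965, 934 and 313 in wild-type cells and 1025, 748 and 261 in the mutant at 0, 60 and 120 minutes. Both arrays of 120 minutes lay far below the other 4. The difference was log2 -0.25 ± 0.092 at 60 minutes (adjusted p = 0.0955) and -1.74 ± 0.092 at 120 minutes (adjusted p = 4.58e-07), a 3.35-fold decrease that placed it 31st of 10916 genes from the bottom. Adamts5, an aggrecan-cleaving protease and the neighbour of Adamts1 on chromosome 16, had 1128, 1127 and 767 in wild-type and 1264, 1216 and 729 in mutant cells. Its level at 60 minutes was close to that at 0 (log2 -0.028 ± 0.069; adjusted p = 0.805), and by 120 minutes it had fallen by 0.66 ± 0.069 (adjusted p = 3.89e-05). Its other probe sets above the filter level gave -0.86 and -0.69. The sequence before the Adamts1 start is shown because this gene changed most; it holds GGGCGG beginning 147, 76 and 25 bases and TATAAA beginning 32 bases before the start, in capitals.
Adamts1 (chr16:85803114-85803363, minus strand): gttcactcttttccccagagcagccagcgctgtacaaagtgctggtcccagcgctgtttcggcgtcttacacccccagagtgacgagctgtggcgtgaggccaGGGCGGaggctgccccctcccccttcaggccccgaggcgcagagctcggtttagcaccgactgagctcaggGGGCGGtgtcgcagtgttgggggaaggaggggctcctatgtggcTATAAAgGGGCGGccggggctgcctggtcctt

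The other Adamts genes called were dimmer and changed less. Adamts7, which cleaves the cartilage matrix protein COMP, had 139, 97.9 and 97.0 in wild-type and 130, 88.6 and 91.4 in mutant cells. It differed by log2 -0.47 ± 0.093 at 60 minutes (adjusted p = 0.00704) and by -0.45 ± 0.093 at 120 minutes (adjusted p = 0.00294), so the values of 60 and 120 minutes lay close together and below those of 0 minutes. Adamts12, a relative of Adamts7, had 281, 255 and 222 in wild-type and 286, 277 and 225 in mutant cells, and differed by -0.32 ± 0.076 at 120 minutes (adjusted p = 0.00619). Adamts6 had 148, 108 and 128 in wild-type and 160, 134 and 112 in mutant cells, and differed by -0.32 ± 0.11 (adjusted p = 0.0397). The Adamts6 call was lost in 6 of 12 alternatives, omission of either 0 minute array among them. That of Adamts12 was lost without the wild-type array of 0 minutes. For Adamts7 the 60 minute call was lost when either 0 minute array or the mutant 60 minute array was left out. Its log2 difference then lay between -0.47 and -0.44.

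Of the Mmp genes, Mmp11, a stromelysin that stromal fibroblasts express, had 455, 357 and 285 in wild-type and 564, 519 and 403 in mutant cells. Its values decreased at each step in both genotypes, and the difference at 120 minutes was log2 -0.56 ± 0.077 (adjusted p = 0.000248). Mmp16, a membrane-type MMP, had 100, 85.1 and 80.9 in wild-type and 72.1, 58.4 and 54.4 in mutant cells, and differed by -0.29 ± 0.10 at 120 minutes (adjusted p = 0.0424), a call that was lost in 7 of 12 alternatives. Mmp2, a gelatinase with intensities of 3592 to 4011, was not called at either time, with log2 differences of -0.018 and 0.015. A second Mmp2 probe set above the filter level gave -0.12 at both times. Mmp14, the membrane-type MMP that activates the MMP2 precursor, differed by -0.14 ± 0.052 at 60 minutes (adjusted p = 0.0884) and -0.13 ± 0.052 at 120 minutes (adjusted p = 0.0709). The other Mmp14 probe sets gave -0.24 and 0.064 at 60 minutes and -0.44 and -0.0089 at 120 minutes, so its sets disagree. Mmp7 and Mmp24, a membrane-type MMP, were not called in any contrast.

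Of the tested ADAM genes other than Adam19, 3 were called lower at 120 minutes and the rest were not called. Adam33 had 172, 129 and 113 in wild-type and 150, 94.9 and 105 in mutant cells, and differed by log2 -0.48 ± 0.10 at 60 minutes (adjusted p = 0.00900) and -0.50 ± 0.10 at 120 minutes (adjusted p = 0.00258). Like Adamts7, it was lower at 60 minutes and differed by -0.019 between 60 and 120 minutes. Its call at 120 minutes was lost when its probe sets were averaged. Omission of the mutant 0 minute array or of the mutant 60 minute array removed its call at 60 minutes. Adam15, a membrane protein with an integrin-binding domain, had 808, 722 and 670 in wild-type and 775, 620 and 645 in mutant cells, and differed by -0.24 ± 0.067 (adjusted p = 0.0370) and -0.26 ± 0.067 (adjusted p = 0.00992). Its other probe sets gave 0.047, -0.11 and -0.30 at 120 minutes, so its sets differ in direction. The Adam15 call at 120 minutes was lost when its sets were averaged (adjusted p = 0.177), without the wild-type 120 minute array and without the mutant 0 minute array, and its call at 60 minutes was lost in 6 alternatives. Adam9, a protease that sheds membrane proteins, had 3262, 3125 and 2829 in wild-type and 2848, 2820 and 2411 in mutant cells, and differed by -0.22 ± 0.050 at 120 minutes (adjusted p = 0.00477). Adam10, the sheddase that acts on Notch, differed by log2 -0.10 ± 0.058 (adjusted p = 0.183). Its other probe sets above the filter level gave 0.053 and -0.028 at 120 minutes, so its sets differ in direction. Between genotypes they gave -0.30 and 0.030, against -0.027 for the set used. The count of members called at 60 minutes rested on few arrays: it was 9 without either 120 minute array, 3 without the mutant 60 minute array and 2, Timp1 and Timp3, without the mutant 0 minute array. Between 60 and 120 minutes the count fell from 8 to 5 without the mutant 60 minute array, and the Adamts12 difference of -0.23 (adjusted p = 0.0476) in that interval was lost in all 6 omissions of an array.

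Between genotypes 7 of the 28 tested members were called, or 25.0%, against 19.4% of all tested genes (10.4% higher and 8.95% lower). Adam22, Mmp11, Timp3 and Mmp14 were higher in mutant cells, and Timp1, Mmp16 and Adam9 were lower. The 7 include Adam22, which reached the filter through its mutant arrays alone. The split over all genes varied with the setting: 1138 higher and 977 lower became 580 and 783 without the wild-type 60 minute array, 572 and 791 without the mutant 60 minute array, and 750 and 855 with probe sets averaged. Of the 9 Adamts genes tested, 0 were called by limma and 1 had an unadjusted p under 0.05. The median log2 difference was -0.011 over the members and 0.015 over all tested genes. Time served as the block in this comparison. Without the block 6 of the 7 lost their calls, and the adjusted p was 0.922 for Timp1 and 0.964 for Timp3. Adam22 kept its call there, in a fit with the filter that it passed through its mutant arrays alone. The 7 leukocyte and macrophage markers, of which 4 passed the filter, summed to between 611 and 630 in wild-type and between 553 and 583 in mutant cells. Cd14 was lower in the mutant at each time, with 250.4, 264.6 and 293.5 in wild-type and 211.5, 232.1 and 216.9 in mutant cells. Ptprc and Cd68, both dim on every array, were higher in mutant cells at each time. The other markers kept no order by genotype. The part of these markers in the genotype differences was not tested.

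**Figure D3:**
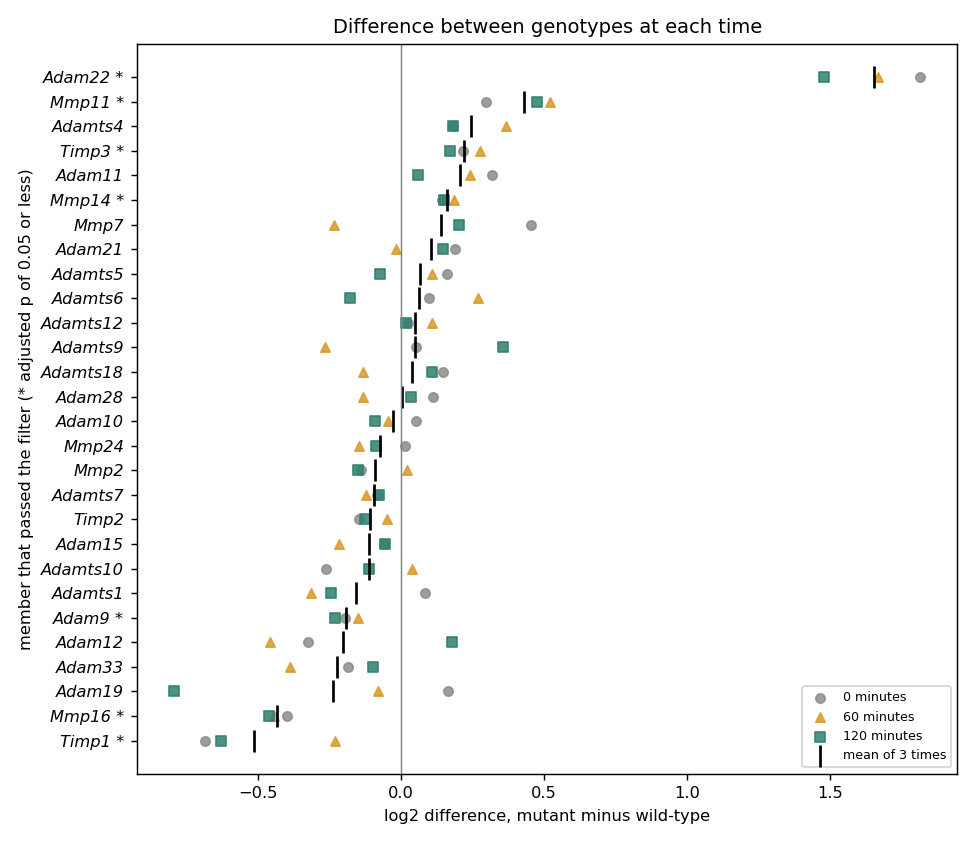
Log2 difference, mutant minus wild-type, at 0 (grey circles), 60 (orange triangles) and 120 minutes (green squares) with the mean of the 3 times (bar), for the 28 members that passed the filter; an asterisk marks an adjusted p of 0.05 or less. Adam22 lies apart from the rest at every time, while Adam19 lies at -0.79 at 120 minutes and near 0 at 60 minutes.

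Adam22, a member that lacks the catalytic zinc site and acts as a receptor for LGI proteins of the nervous system, had intensities of 16.4, 24.2 and 21.0 in wild-type and 98.0, 112 and 87.2 in mutant cells. Every wild-type array lay below the filter level of 39.2 and every mutant array above it, so the gene passed the filter through its mutant arrays. For that reason its test is given from the fit that used no filter, where its log2 difference was 1.65 (limma, n = 3 arrays per genotype; adjusted p = 1.30e-05). The size depended on the offset added before taking logs and was 2.22 with an offset of 1 and 0.94 with 64. A second Adam22 probe set, below the filter level, gave -0.071, so its sets disagree, and their average gave 0.79. The 5 endothelial markers, of which Cdh5 alone passed the filter, summed to between 75.8 and 88.9 in wild-type and between 120 and 131 in mutant cells, with Cdh5 between 22.4 and 27.4 and between 61.4 and 64.6 and with Pecam1 near 0 throughout; their part in the result was not tested.

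Mmp11 was higher in mutant cells at each time, by log2 0.30, 0.52 and 0.48 at 0, 60 and 120 minutes, with a mean of 0.43 ± 0.062 (adjusted p = 0.00151). Mmp16 was lower at each time, by -0.40, -0.44 and -0.46, with a mean of -0.43 ± 0.085 (adjusted p = 0.00711), and no mutant array of it reached the lowest wild-type array. Its other probe sets, all below the filter level, gave -0.23, -0.51 and -0.0023. Adam9 was lower by -0.19 ± 0.041 (adjusted p = 0.0108), a call that was lost with shrinkage without trend (adjusted p = 0.0692). Mmp14, with 1761, 1571 and 1607 in wild-type and 1950, 1788 and 1787 in mutant cells, was higher by 0.16 ± 0.043 (adjusted p = 0.0278). That call was lost when any 1 of the 6 arrays was left out, with adjusted p from 0.0522 to 0.115, and the other Mmp14 probe sets gave 0.19 and -0.030.

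**Figure D4:**
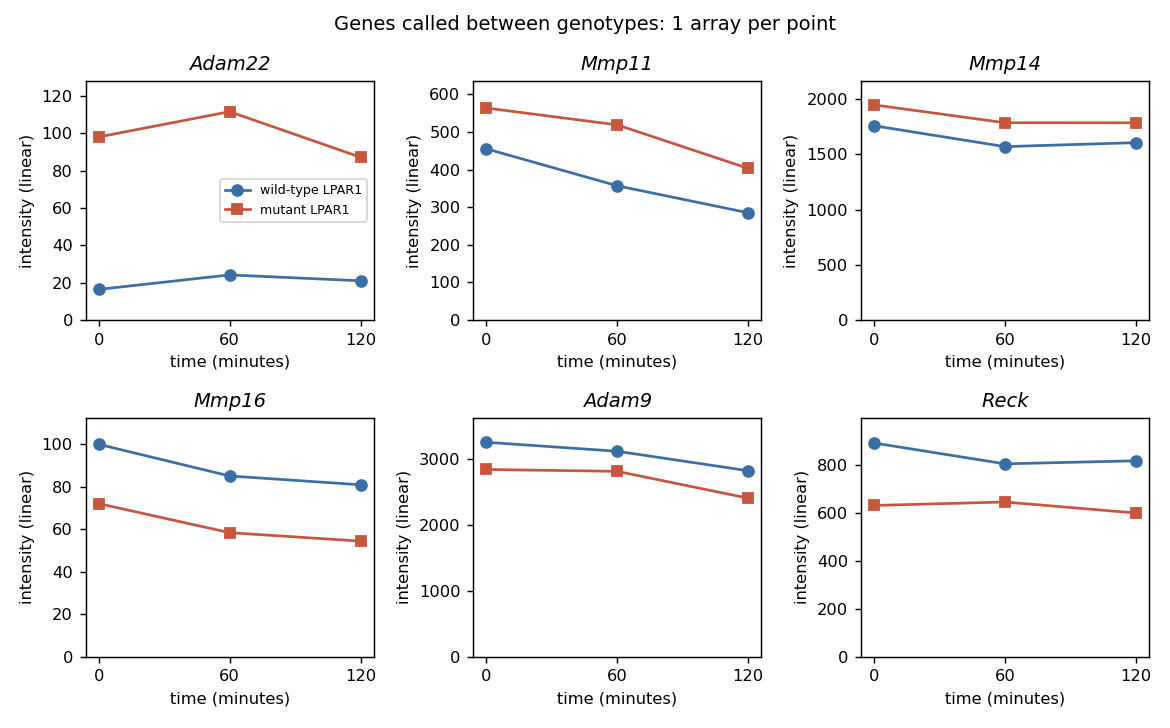
Intensity (linear axis from 0) against time in minutes for 5 members called between genotypes and for Reck, an inhibitor outside the Timp family, 1 array per point, wild-type LPAR1 in blue circles and mutant LPAR1 in red squares. The lines of the genotypes do not cross in any of the 6 panels, and the gap is widest in relative terms for Adam22.

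Timp1 and Timp3 differed between genotypes in opposite directions. Timp1 was lower in mutant cells by log2 -0.68, -0.23 and -0.63 at 0, 60 and 120 minutes, with a mean of -0.51 ± 0.078 (adjusted p = 0.00201). Timp3 was higher by 0.22, 0.28 and 0.17, with a mean of 0.22 ± 0.043 (adjusted p = 0.00650). The other 3 Timp3 probe sets gave 0.068 to 0.14, and the call was lost when all sets of the gene were averaged (adjusted p = 0.0948). Timp2 differed by -0.11 ± 0.036 and did not pass (adjusted p = 0.0688); its other sets above the filter level gave -0.14, -0.23, -0.30 and -0.40. By 120 minutes Timp1 differed from 0 minutes by log2 1.82 in wild-type and 1.87 in mutant cells, while at 60 minutes the values were 0.57 and 1.02. For Timp3 they were 1.07 and 1.03 at 120 minutes and 0.63 and 0.69 at 60 minutes.

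Whether the time course differed between genotypes could not be tested, since each combination had 1 array, and the values are given without a test. Adam19 had the widest gap among the members. It rose by log2 1.93 in wild-type cells and by 0.97 in the mutant from 0 to 120 minutes, a difference of -0.95 that ranked 21st of 10916 genes by absolute size. The median absolute difference was 0.083 over the 28 members and 0.11 over all tested genes. Adam12, a membrane protease of mesenchymal cells, had 115, 95.5 and 70.0 in wild-type and 88.9, 65.3 and 81.3 in mutant cells, so that it differed by -0.61 over 120 minutes in wild-type and by -0.11 in mutant cells. A second Adam12 probe set above the filter level gave 0.096 at 120 minutes over both genotypes, against -0.36 for the set used. Its sets thus differ in direction. Adamts1 differed by -1.58 in wild-type and by -1.91 in mutant cells. Mmp7 differed by -0.029 in wild-type cells and -0.72 in the mutant at 60 minutes, at intensities near the filter level.

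**Figure D5:**
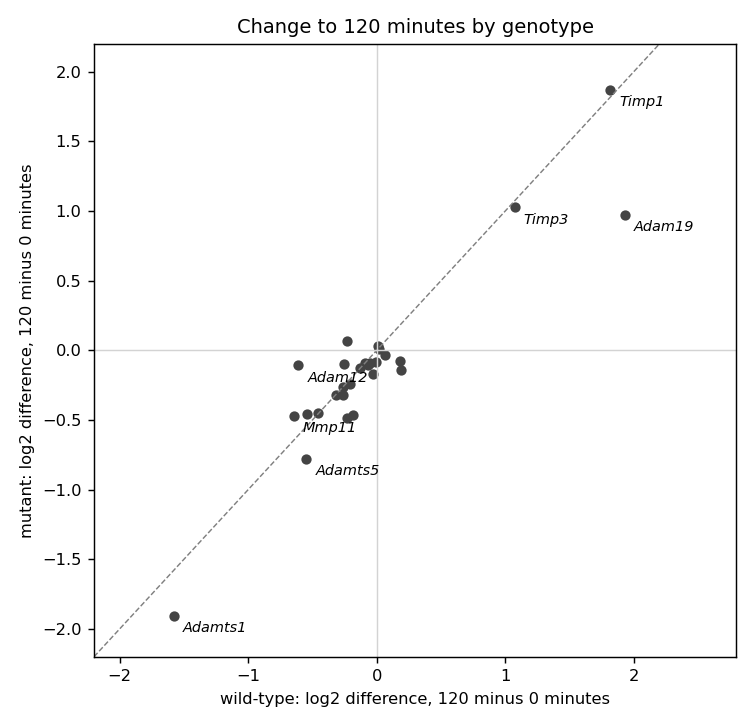
Log2 difference, 120 minus 0 minutes, in wild-type (horizontal) against mutant cells (vertical) for the 28 members that passed the filter, with equal change on the dashed line. Timp1 and Timp3 lie near the line, and Adam19 (1.93 in wild-type and 0.97 in mutant cells) and Adamts1 (-1.58 and -1.91) lie below it.

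Of the 28 members, 13 were called in no contrast: Adam10, Adam11, Adam12, Adam21, Adam28, Adamts4, Adamts9, Adamts10, Adamts18, Mmp2, Mmp7, Mmp24 and Timp2. Their differences from 0 to 120 minutes lay between log2 -0.36 and 0.052. Adamts4, an aggrecan-cleaving relative of Adamts5, differed by log2 0.18, 0.37 and 0.18 between mutant and wild-type cells at 0, 60 and 120 minutes, with a mean of 0.24 ± 0.090, and did not pass (adjusted p = 0.0893). Of the 15 members called, 5 were called both between genotypes and over time, namely Timp1, Timp3, Mmp11, Mmp16 and Adam9. How many of all tested genes fall in these groups was not counted. These counts therefore describe the members alone.

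Genes that act with these families were examined as 3 lists. Of 12 tested genes for the maturation and trafficking of ADAM and membrane-type MMP proteins, 5 rose and 2 fell by 120 minutes, where 47.0% of all tested genes were called (16.2% higher and 30.8% lower). Without trend in the shrinkage 6 of the 12 were called. Sh3pxd2b, a scaffold of the matrix-degrading protrusions called podosomes, rose by log2 0.87 ± 0.080 (adjusted p = 1.78e-05), from 436 to 899 in wild-type and from 579 to 959 in mutant cells. Tspan14, a tetraspanin that binds ADAM10, was lower at -0.77 ± 0.073 (adjusted p = 2.17e-05), as was its relative Tspan17 at -0.40 ± 0.068 (adjusted p = 0.000959). At 60 minutes Rhbdf1 rose (log2 0.20) and Tspan14 fell (-0.35), against 18.0% of all tested genes called. Between 60 and 120 minutes 3 rose, among them Sh3pxd2b (0.66) and Tspan5 (0.29), and 2 fell, among them Tspan14 (-0.42), against 25.1%. Between genotypes only Sh3pxd2b was called, higher in mutant cells by 0.27 ± 0.065 (adjusted p = 0.0191), against 19.4%. Without trend 1, 4 and 0 of the 12 were called in these contrasts. Of 7 tested metzincin relatives, other inhibitors and associated matrix proteins, 0 were called by limma in any time contrast. However, 2 at 60 and 1 at 120 minutes had an unadjusted p under 0.05, and without trend in the shrinkage 1 was called at 120 minutes. Between genotypes 2 of the 7 were lower in mutant cells, against 8.95% of all tested genes, and without trend Reck alone of these was called. The first was Reck, a membrane-anchored inhibitor of MMPs, with 893, 806 and 818 in wild-type and 632, 646 and 600 in mutant cells (log2 -0.41 ± 0.055; adjusted p = 0.000902). The second was Sparc, a matrix protein (-0.21 ± 0.036; adjusted p = 0.00368). Of 8 tested proteoglycans and glycoproteins that ADAMTS enzymes cleave, 4 were lower in mutant cells and none was higher, against 8.95% lower and 10.4% higher over all tested genes, and without trend 3 were called. They include the basement membrane genes Nid2 and Nid1 (-0.55 ± 0.051; adjusted p = 9.94e-05) and the matrix glycoprotein Thbs1 (-0.59 ± 0.050; adjusted p = 5.60e-05). Nid2 had 166, 161 and 160 in wild-type and 35.5, 32.8 and 29.6 in mutant cells, so that it passed the filter through its wild-type arrays alone; in the fit with no filter it differed by log2 -1.88 (adjusted p = 2.02e-06). Over time 1 of the 8, Thbs1, rose and 1, the small proteoglycan gene Bgn, fell by 120 minutes, the Bgn call being lost without the filter (adjusted p = 0.0639) and without trend (adjusted p = 0.145). Thbs1 had 114, 3161 and 3455 in wild-type and 66.3, 2145 and 2333 in mutant cells, a rise of log2 4.79 ± 0.061 by 120 minutes (adjusted p = 6.07e-11).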

How the data were processed

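Intensities per probe set were deposited for 6 arrays; per the submitters' processing notes, PLIER, which summarises the probes of a set, was run in Affymetrix Power Tools (version 1.14.3.1). Background correction and scaling between arrays are not given in the sources used here. Of 45101 probe sets, 34945 were paired with 1 gene, 932 with several, 9160 with none, and 64 were controls. Probes were named from the platform annotation, with symbols updated by gene identifier through RefSeq (GRCm38.p6; 34741 sets matched). The 64 members had 113 probe sets.

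An offset of 16 was added before taking log2 and the arrays were not rescaled; differences are on this scale, which understates the change of low genes. Genes were fitted with limma 3.58.1 in R 4.3.3, with genotype and time as additive terms and shrinkage with a trend (2 residual degrees of freedom, plus 7.73 from shrinkage), two-sided, with Benjamini-Hochberg adjustment over 10916 genes within a contrast. A gene was called at an adjusted p of 0.05. Time, taken from the labels, pairs the arrays of the genotypes: deviations from the genotype means correlated across genes at r = 0.912, 0.757 and 0.871 for 0, 60 and 120 minutes, which includes the shared time response. The script was tested on simulated data. Alternatives were the offset, the filter, quantile normalisation, averaging of probe sets, shrinkage without trend, no block and omission of each array.

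Every member that passed the filter is named; members called in a contrast and the Timp genes are given on every array, and from each of 3 lists of related genes up to 3 called genes are named per contrast. The members and lists were chosen with earlier results of these data known. Promoter sequences are RefSeq's (GRCm38.p6). The number of arrays limits the precision.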

Additional observations from a re-analysis of the deposited data

Results flagged for a closer look

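Among the members that passed the filter, Adam11 and Mmp24 were above their 0 minute level at both later times in wild-type cells and below it at both in mutant cells. Adamts9 also differed in sign between genotypes at each time, but it changed sign between times within each genotype, with 0.061 and -0.23 in wild-type and -0.26 and 0.069 in mutant cells at 60 and 120 minutes. From 0 to 120 minutes Adam11, an ADAM protein without a catalytic site, differed by log2 0.18 in wild-type and by -0.077 in mutant cells, a difference of -0.258 (mutant minus wild-type). For Mmp24 the same values were 0.066, -0.035 and -0.101. Neither difference could be tested, with 1 array per genotype and time, and neither gene was called in any contrast. At 60 minutes the changes were log2 0.0083 in wild-type and -0.068 in mutant cells for Adam11. For Mmp24 they were 0.057 and -0.10. The SE of the 60 minute contrast over both genotypes was 0.13 for Adam11 and 0.11 for Mmp24. It does not measure the spread of a change within 1 genotype. How many of all tested genes show such signs was not counted.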

How the results depend on the processing

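Of 33 differences of members that were called, 16 stayed called in every alternative run and 17 were lost in at least 1; none reversed its sign in any alternative run. Shrinkage without trend gave 1402 genes between genotypes. Without the replicate block of time, 91 genes and 1 member were called between genotypes, against 2115 and 7. That member was Adam22, which reached the filter through its mutant arrays alone. The 60th percentile filter left 3 members called at 60 minutes, against 5. Leaving out 1 array at a time gave 1363 to 2164 genes between genotypes, 1145 to 2511 at 60 minutes, 3674 to 5311 at 120 minutes and 1932 to 2714 between 60 and 120 minutes; for members the counts were 6 to 8, 2 to 9, 10 to 15 and 5 to 7. The other counts stayed within 1.5 times the main value. Quantile normalisation moved the median of an array by at most log2 0.053. Members below the filter level are limited by their low signal, and the cause of the changes with each setting was not tested.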
